A study of Mus musculus with 23 samples.

Results

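The genes described here are 122 autosomal genes whose RNA was low in diplotene spermatocytes and higher both before meiotic prophase and after it. They were taken from 18193 measured genes, of which 17404 lie on chromosomes 1 to 19. Levels and differences below are on the scale log2(intensity + 1), computed from the deposited array values, and where a gene had several probe sets the one with the largest wild-type mean stood for it. The members were chosen by their measured levels in 3 fractions: a gene was kept where its wild-type pre-leptotene mean and its round spermatid mean were both at least 7 and both at least 1.5 above its diplotene mean. The values of these fractions are therefore given as a description only, with no test.

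Germ cells of mouse testis had been stained with the DNA dye Hoechst and sorted by flow cytometry, and their RNA was hybridised to 23 Affymetrix arrays. The 3 Spo11-/- arrays (spermatogonia, pre-leptotene and leptotene/zygotene, 1 each) came from males aged 10 to 16 weeks that lack the enzyme making the DNA breaks of meiosis; each fraction was collected more than once from several mice and combined, and the labels name no strain for them. The 20 wild-type arrays came from C57bl6/JxDBA/2J F1 males of the same age and covered spermatogonia (4 arrays), pre-leptotene (3), leptotene/zygotene (3), early pachytene (1), mid-pachytene (2), late pachytene (1), diplotene (2) and round spermatids (4). The labels call repeated wild-type arrays biological replicates, and p-values measure the spread between these arrays, whose number limits the precision. In sorted bulk samples, fewer cells of a type and less RNA per cell cannot be told apart.

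During male meiosis chromosomes pair in leptotene and zygotene and stay paired through pachytene, while the largely unpaired X and Y chromosomes are silenced. Autosomes are transcribed through pachytene and diplotene, when many genes of sperm formation switch on, and the haploid round spermatids that follow transcribe again from most chromosomes, in part including the X. A fall and return of RNA through prophase is therefore best known for X-linked genes.

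The fractions differed in their markers, and some carried RNA of other stages or cell types. Piwil1, a gene of the piRNA pathway that is switched on in pachytene, averaged 7.74 ± 0.36 in pre-leptotene, 13.61 ± 0.14 in mid-pachytene and 11.25 ± 0.14 in round spermatids (SD, n = 3, 2 and 4). The median of 37 spermatid genes was 8.58 to 11.50 in wild-type spermatogonia, 6.68 to 8.46 in pre-leptotene and 8.41 to 9.21 in leptotene/zygotene, where spermatids are absent by name, and it was 3.11 to 3.35 in the Spo11-/- arrays, which carry little RNA of these genes. The protamine gene Prm1, for example, was at 3.17 to 3.35 in Spo11-/- fractions and at 13.45 or more in wild-type spermatogonia, pre-leptotene and leptotene/zygotene arrays. Prm1 was lower in late pachytene (12.70) and diplotene (12.74 to 13.21) and at 14.15 to 14.81 in round spermatids. The median of the 37 spermatid genes was 8.85, 10.40 to 10.69 and 12.07 to 12.54 in those fractions. The part of such RNA in the members' values was not tested. The median of 23 spermatogonial genes was 8.28 to 9.55 in wild-type spermatogonia, 8.73 to 9.48 in pre-leptotene and 9.51 to 10.07 in leptotene/zygotene. It thus did not set the spermatogonia apart from these fractions, and it was lower in diplotene and round spermatids. The Spo11-/- pre-leptotene array stood apart through T cell markers, with 14 of 15 at log2 of at least 4 and a median of 8.30. Spo11 itself was at 4.30, 4.80 and 5.21 in Spo11-/- spermatogonia, pre-leptotene and leptotene/zygotene, against wild-type means of 5.93, 5.96 and 8.37; whether the probes lie in the deleted part is not given in the sources used here.

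The promoters of the 3 members with the deepest dip that have a single window in the RefSeq table of GRCm38.p6 are shown because the members move together and the promoter is where sequence features of such genes are usually sought. Each run is the 250 bases before the transcription start, on the minus strand, 5′ to 3′, with every match to the searched motifs in capitals. The windows are chr11:50431126-50431375 for Rufy1, chr17:25861516-25861765 for Wdr90 and chr19:10881744-10881993 for Tmem109. The Rufy1 window reaches into the annotated gene, which extends to base 50431274, so the start in the table and the annotated end of the gene differ.
Rufy1: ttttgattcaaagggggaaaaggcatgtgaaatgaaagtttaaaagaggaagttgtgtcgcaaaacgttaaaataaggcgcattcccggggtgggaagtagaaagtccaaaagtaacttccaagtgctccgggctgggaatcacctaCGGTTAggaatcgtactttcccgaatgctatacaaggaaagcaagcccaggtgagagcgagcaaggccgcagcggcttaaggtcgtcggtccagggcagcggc
Wdr90: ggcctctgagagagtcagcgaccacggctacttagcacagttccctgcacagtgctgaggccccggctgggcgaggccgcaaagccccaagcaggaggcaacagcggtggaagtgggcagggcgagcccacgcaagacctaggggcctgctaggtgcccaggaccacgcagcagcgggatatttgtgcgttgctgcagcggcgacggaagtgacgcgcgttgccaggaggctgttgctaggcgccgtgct
Tmem109: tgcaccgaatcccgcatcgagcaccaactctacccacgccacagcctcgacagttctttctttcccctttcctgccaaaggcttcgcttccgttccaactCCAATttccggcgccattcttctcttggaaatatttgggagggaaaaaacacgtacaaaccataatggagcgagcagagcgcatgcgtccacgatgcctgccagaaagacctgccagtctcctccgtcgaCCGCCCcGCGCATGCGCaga
Rufy1 held 1 match to CNGTTA, the core of MYB sites, and Wdr90 held 0 of the 10 motifs. Tmem109 held 1 CCAAT box, 1 GGGCGG box, on the other strand, and 1 copy of the palindrome bound by NRF1. GC content was 50% in Rufy1, 66.4% in Wdr90 and 56.0% in Tmem109.

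As a group, the members held their level up to leptotene/zygotene, were lower through pachytene and were higher again in round spermatids. Their median per array was 9.50, 9.33, 9.28 and 9.69 in spermatogonia, 9.65, 9.25 and 9.52 in pre-leptotene, 9.48, 9.15 and 9.30 in leptotene/zygotene, 8.69 in early pachytene, 8.31 and 7.94 in mid-pachytene, 6.40 in late pachytene, 6.70 and 6.65 in diplotene, and 8.96, 8.85, 8.63 and 8.28 in round spermatids. The fractions up to leptotene/zygotene overlapped, and late pachytene was at the level of diplotene. The other 4729 autosomal genes with pre-leptotene and round spermatid means of at least 7 stayed between 9.71 and 10.03 in all wild-type arrays. The median of the spermatogonial genes was 3.90 to 5.24 in round spermatids, against 4.98 and 4.44 in diplotene, and that of 12 peritubular and stromal markers was 5.11 to 5.46 in round spermatids, against 3.75 and 3.87 in diplotene; the part of either in the members' values was not tested.

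**Figure D1:**
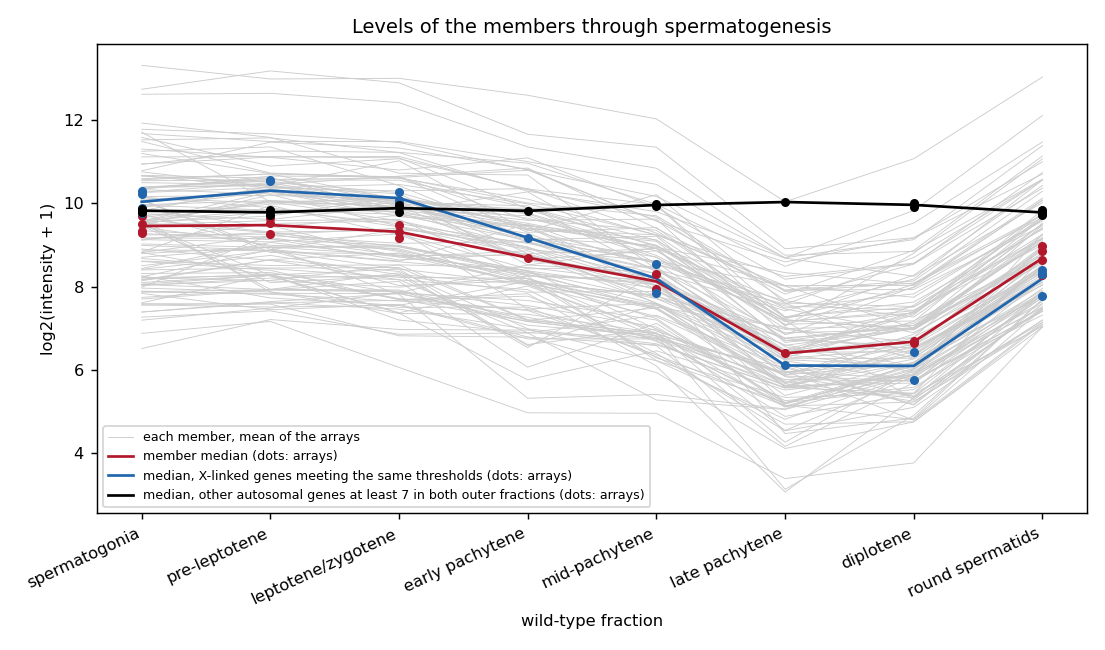
Log2(intensity + 1) in 8 wild-type fractions in the order of spermatogenesis. Grey lines are the 122 members, red their median, blue the median of 29 X-linked genes meeting the same thresholds and black that of 4729 other autosomal genes, with a dot for each array. The red median is at 6.40 in late pachytene and 8.28 to 8.96 in round spermatids, and the black one stays near 10.

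The dip was partial for most members. The diplotene mean ran from 3.77 to 11.06 with a median of 6.53, and 85 of 122 members still averaged at least 6 there (62.2% of all genes tested and 99.8% of the other 4729). The pre-leptotene mean exceeded the diplotene mean by up to 5.48 (median 2.57), and the round spermatid mean by up to 3.39 (median 2.04). Between the 2 outer fractions, both used by the rule, 47 members averaged at least 1 lower in round spermatids than in pre-leptotene (36% and 30%) and 2 at least 1 higher (32.4% and 29.5%), and the median difference was -0.64. The 4 round spermatid arrays were uneven: array 4 was the lowest in 76 members (42.2% of all genes tested and 35.3% of the other 4729) and array 1 the highest in 68 (37.7% and 33%). Just inside the thresholds lay Gsk3b, a protein kinase gene, at 1.5002 and 1.9971 above diplotene in pre-leptotene and round spermatids, with Hspbap1 at 1.55 and 1.5023 and Smco4 at 1.51 and 2.63. Other Gsk3b probe sets with a mean of at least 5 differed from diplotene by -0.05, -0.87 and 0.93 in round spermatids. Just outside were Pole2, of the replicative polymerase, at 1.4999 and 2.02, the RNA-binding protein gene Mex3c at 2.72 and 1.49, and Gphn at 1.49 and 1.67. In 120 of 122 members both diplotene arrays lay below every pre-leptotene and round spermatid array, a count that the rule makes likely (6.47% of all genes tested and 6.68% of the other 4729; the exceptions were Erf and Selenop).

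Among X-linked genes the same thresholds were met far more often. Of 56 X-linked genes at least 7 in pre-leptotene and round spermatids 29 met them (51.8%), against 122 of 4851 autosomal genes (2.51%). The median of the 29 was 10.04 to 10.26 in leptotene/zygotene, 9.17 in early pachytene, 8.54 and 7.85 in mid-pachytene, 6.11 in late pachytene, 6.44 and 5.76 in diplotene and 7.77 to 8.40 in round spermatids. Like the autosomal median, it was below every leptotene/zygotene array in early pachytene and lowest in late pachytene or diplotene. Both sets were chosen by the same thresholds, so their low diplotene and higher round spermatid levels follow from the choice and are no likeness found. On single autosomes the share ran from 1.35% on chromosome 11, with 6 of 445 genes, to 4.29% on chromosome 6, with 10 of 233. No autosome came near the share of the X.

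**Figure D2:**
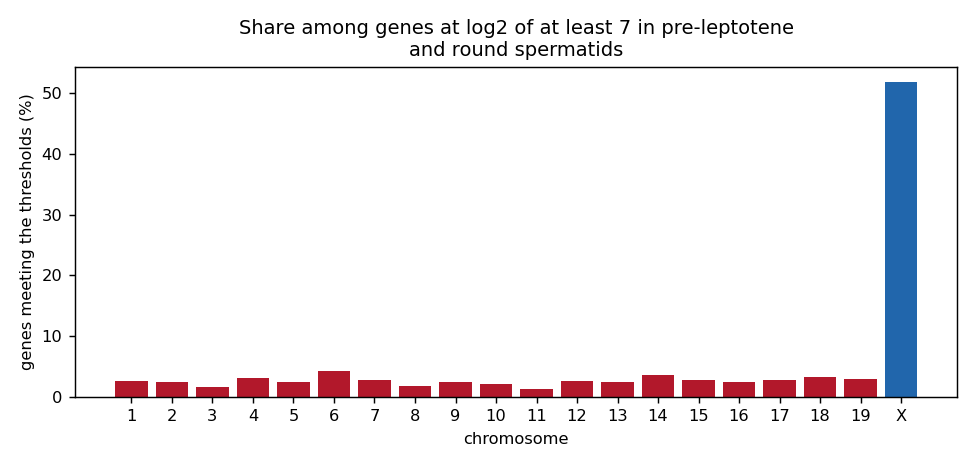
Share of genes meeting the thresholds, in percent of genes at least 7 in pre-leptotene and round spermatids, by chromosome. Red bars are autosomes, between 1.35% and 4.29%, and the blue bar is the X at 51.8%.

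The 12 members with the deepest dip, by the smaller of their rises above diplotene, had varied functions. Rufy1, which encodes an effector of Rab proteins on early endosomes, had the lowest diplotene mean. It was at 7.12, 6.66, 7.65 and 6.07 in spermatogonia, 6.91, 7.29 and 7.29 in pre-leptotene, 5.88, 6.33 and 5.98 in leptotene/zygotene, 4.97 in early pachytene, 5.06 and 4.86 in mid-pachytene, 3.40 in late pachytene, 3.50 and 4.05 in diplotene, and 6.41, 6.94, 7.43 and 7.35 in round spermatids. Late pachytene and 1 diplotene array thus lay below 4, the level used as the filter for low values, and the spermatid arrays reached the early ones. Wdr90, of centriolar microtubules, was at 9.42, 10.02, 10.31 and 10.30 in spermatogonia, 9.91, 10.74 and 10.32 in pre-leptotene, 9.21, 10.36 and 9.73 in leptotene/zygotene, 8.94 in early pachytene, 7.79 and 8.57 in mid-pachytene, 4.48 in late pachytene, 3.46 and 6.23 in diplotene, and 7.08, 7.90, 8.33 and 7.48 in round spermatids. Its 2 diplotene arrays differed widely, and no spermatid array reached the early arrays. Tmem109, a membrane protein of the endoplasmic reticulum, was at 10.75, 10.28 and 10.44 in pre-leptotene, 8.85 and 7.99 in mid-pachytene, 6.39 in late pachytene, 6.51 and 7.06 in diplotene, and 9.46, 9.62, 9.48 and 9.36 in round spermatids. Its fractions did not overlap.

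**Figure D3:**
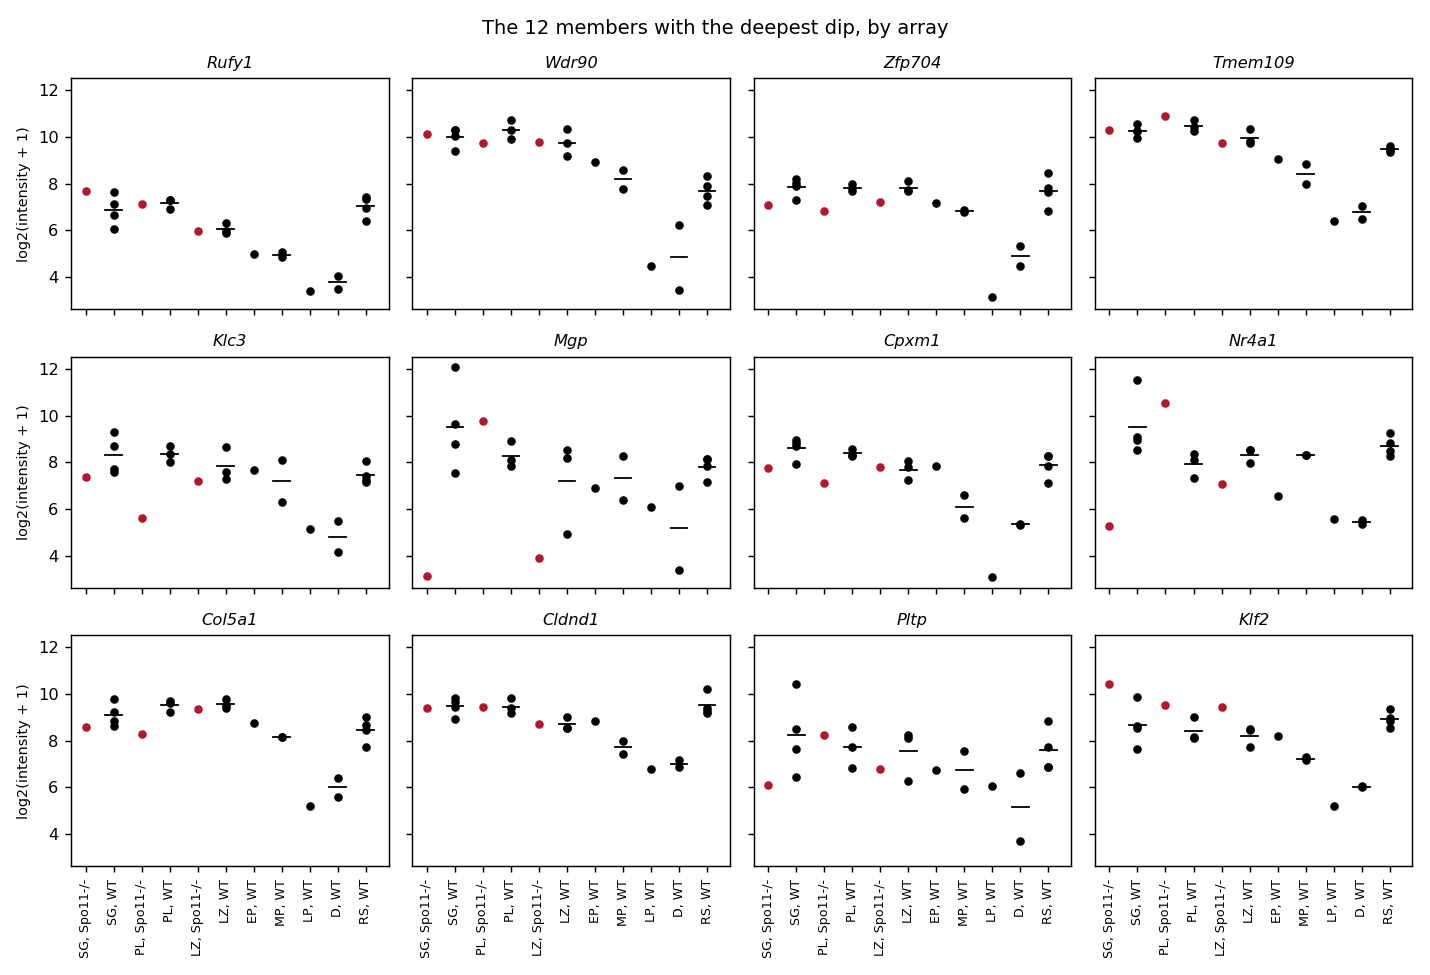
Log2(intensity + 1) of the 12 members with the deepest dip in each array, with bars at means. Spo11-/- arrays (red) stand left of the wild-type arrays (black) of their fraction; SG is spermatogonia, PL pre-leptotene, LZ leptotene/zygotene, EP, MP and LP early, mid and late pachytene, D diplotene and RS round spermatids. Rufy1 reaches 3.40 in late pachytene, and the Mgp and Pltp diplotene arrays lie apart.

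Several of the deepest dips were in genes of secreted proteins and of immediate early transcription factors. Col5a1, a fibrillar collagen chain, was at 9.68, 9.23 and 9.62 in pre-leptotene, 9.41, 9.77 and 9.55 in leptotene/zygotene, 8.14 and 8.15 in mid-pachytene, 5.20 in late pachytene, 5.60 and 6.40 in diplotene, and 8.45, 9.02, 8.67 and 7.72 in round spermatids. Cpxm1, a secreted carboxypeptidase-like protein, reached 3.07 in late pachytene, with 5.31 and 5.35 in diplotene and 7.13 to 8.28 in round spermatids. Both genes were low in every late pachytene and diplotene array. Mgp, matrix Gla protein, and Pltp, a phospholipid transfer protein, were less even. Mgp was at 7.17 to 8.14 in round spermatids, against 6.97 and 3.38 in diplotene, and Pltp at 6.86 to 8.85 in round spermatids, against 6.61 and 3.71 in diplotene. For each, diplotene array 1 alone lay close to the spermatid arrays. The median of 12 peritubular and stromal markers was lower in late pachytene and diplotene than in round spermatids, while diplotene overlapped pre-leptotene. It was 3.77 to 5.54 in pre-leptotene, 3.73 in late pachytene, 3.75 and 3.87 in diplotene and 5.11 to 5.46 in round spermatids. In spermatogonia array 4, where Mgp was at 12.06, the marker median was 8.85. The log2 of the 12 markers' summed level was 9.91 to 11.10 in pre-leptotene and 10.24 to 10.71 in round spermatids. It was 8.68 to 8.89 in the late pachytene and diplotene arrays. In each late pachytene and diplotene array 5 of the 12 were at log2 of at least 4. Cnn1 and Col1a1 were below 4 in every late pachytene, diplotene and round spermatid array. The part of the 12 markers in the values of the secreted genes was not tested.

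Nr4a1, an orphan nuclear receptor gene induced within minutes of many stimuli, was at 8.36, 7.33 and 8.11 in pre-leptotene, 8.52, 7.95 and 8.52 in leptotene/zygotene, 6.54 in early pachytene, 8.32 and 8.29 in mid-pachytene, 5.58 in late pachytene, 5.54 and 5.35 in diplotene, and 9.24, 8.26, 8.82 and 8.46 in round spermatids. Unlike most members it was no lower in mid-pachytene than before. The Krüppel-like factor gene Klf2 was at 8.13, 8.16 and 8.9996 in pre-leptotene, 7.15 and 7.31 in mid-pachytene, 5.20 in late pachytene, 6.06 and 6.01 in diplotene, and 8.55, 8.99, 8.82 and 9.34 in round spermatids. Its relative Klf4 was at 10.9961, 11.46 and 11.97 in pre-leptotene, 8.69 in late pachytene, 9.77 and 9.88 in diplotene, and 12.20, 11.89, 12.15 and 12.15 in round spermatids. Both Klf genes returned at least to their pre-leptotene range. The list of circadian and immediate early genes held 31 measured genes, of which Klf2, Klf4, Nr4a1 and the MAP kinase phosphatase gene Dusp1 were members. The smaller rise above diplotene had a median of 0.83 over the 13 genes of that list at least 7 in both outer fractions, against -0.69 over all such autosomal genes. The rule used this quantity, the 13 genes include those 4 members, and the list was written with earlier results known. These medians are therefore a description only.

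The other deep dips were in Zfp704, Klc3 and Cldnd1. The zinc finger gene Zfp704 was at 7.68 to 7.99 in pre-leptotene, 3.14 in late pachytene, 4.47 and 5.35 in diplotene and 6.84 to 8.46 in round spermatids. Klc3, a kinesin light chain found in the tails of rat spermatids, was at 7.99 to 8.68 in pre-leptotene, 5.15 in late pachytene, 5.48 and 4.14 in diplotene and 7.15 to 8.04 in round spermatids. The membrane protein gene Cldnd1 was at 9.18 to 9.82 in pre-leptotene, 6.77 in late pachytene, 6.87 and 7.17 in diplotene and 9.20 to 10.22 in round spermatids. In all of them the late pachytene and diplotene arrays lay below every pre-leptotene and round spermatid array.

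Pachytene was not used to choose the genes, and the members were already lower there. The late pachytene array was within 1 of the diplotene mean in 101 members (82.8% of all genes tested and 92.5% of the other 4729). Diplotene was used by the rule and the other 4729 failed it, so low late pachytene values partly follow from the choice. The late pachytene array lay below every leptotene/zygotene array in 121 of 122 members (43.6% of all genes tested; 39.4% of the 4729 other autosomal genes), the exception being Mgp, and at least 1.5 below the leptotene/zygotene mean in 116 (22.7% and 11.2%). Late pachytene was the lowest of the 8 fractions in 89 members (11.6% and 10.7%) and diplotene in the other 33 (11.3% and 6.94%). Early pachytene lay below every leptotene/zygotene array in 82 members (44.1% and 42.9%) and at least 1.5 below their mean in 9 (7.79% and 2.16%). With 1 array each, early and late pachytene allow no test. The means ran in the order leptotene/zygotene, early, mid and late pachytene from high to low in 83 members (18.6% and 14.2%).

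Between mid-pachytene and leptotene/zygotene, both unused by the rule, 73 of 122 members fell and 0 rose in limma's test (Benjamini-Hochberg adjusted p below 0.05 over all 13087 genes tested and a change of at least 1). Of all genes tested 15.2% were called lower and 14.2% higher, and of the other 4729 autosomal genes 9.14% and 14.4%. All 122 members passed the filter on low values. The median change was -1.17 over the members and -0.07 over all genes tested, and 119 members had a change below 0. Both mid-pachytene arrays lay below every leptotene/zygotene array in 102 members (33.5% of all genes tested and 31.1% of the other 4729), and their mean was at least 1.5 lower in 29 (9.43% and 2.09%). The 2 mid-pachytene arrays were not alike: array 2 was below array 1 in 102 members (59.4% and 55.2%). Without array 2 fewer members, and fewer of all genes tested, were called lower, with the lone array taken to vary like the other groups. The median change was then -0.95 over the members and -0.01 over all genes tested.

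**Figure D4:**
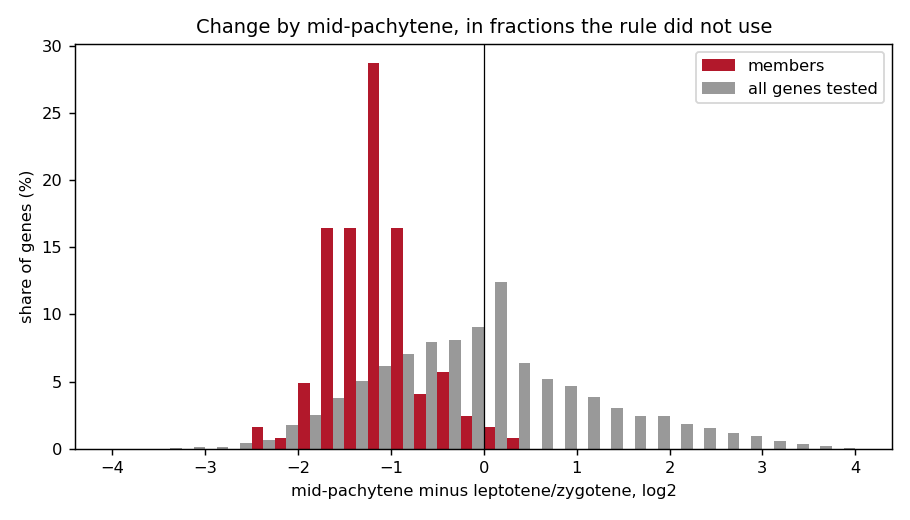
Share of genes, in percent, by the change from leptotene/zygotene to mid-pachytene in log2 units, in bins of 0.25. Red bars are the 122 members, with a median of -1.17, and grey bars the 13087 genes tested, with a median of -0.07.

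The steepest falls in mid-pachytene were in a glycan enzyme, a nucleotide enzyme, a transporter and a scaffold gene. Pxylp1, a phosphatase of glycosaminoglycan synthesis, was at 5.33 and 5.50 in mid-pachytene, against 7.75, 7.97 and 7.71 in leptotene/zygotene (-2.40 ± 0.44, SE, adjusted p = 0.00109). Rrm2, a subunit of ribonucleotide reductase, which makes the building blocks of DNA, was at 8.71 and 8.11 in mid-pachytene, against 10.92, 10.53 and 10.70 in leptotene/zygotene (-2.31 ± 0.33, adjusted p = 0.000221). Neither gene's arrays overlapped. Abcg2, an efflux transporter, was at 7.59 and 6.14 in mid-pachytene, against 8.72, 8.82 and 9.08 in leptotene/zygotene (-2.0048 ± 0.34, adjusted p = 0.000689). Homer1, a scaffold best known from synapses, was at 8.30 and 7.56 in mid-pachytene, against 10.00, 9.73 and 9.78 in leptotene/zygotene (-1.91 ± 0.44, adjusted p = 0.00454); without mid-pachytene array 2 its call ended (-1.54, adjusted p = 0.0880). In round spermatids Pxylp1 was back at 7.69 to 8.46, Rrm2 at 10.45 to 10.61 and Abcg2 at 8.61 to 9.25. Homer1, at 7.39 to 8.40, was still near its mid-pachytene level and below every leptotene/zygotene array. Other Homer1 probe sets with a mean of at least 5 were 1.91, 0.30 and 1.73 above diplotene in round spermatids.

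Of the 12 deepest members Rufy1, Tmem109, Cpxm1 and Col5a1 passed that test. Tmem109 changed by -1.55 ± 0.30 (adjusted p = 0.00147), Cpxm1 by -1.59 ± 0.40 (0.00761), Col5a1 by -1.43 ± 0.39 (0.0107) and Rufy1 by -1.10 ± 0.40 (0.0442). The call on Rufy1 was near the threshold and ended under most other settings, with its change between -0.92 and -1.20 in them, and those on Cpxm1 (-1.10, 0.155) and Col5a1 (-1.43, 0.08) ended without mid-pachytene array 2. The other 8 did not pass, with Wdr90 at -1.58 ± 0.62, Zfp704 at -1.01 ± 0.40, Nr4a1 at -0.02 ± 0.63 and Mgp at 0.11 ± 1.24. For Nr4a1 and both Klf genes the mean differed more between mid- and late pachytene than between leptotene/zygotene and mid-pachytene.

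Genes of replication, checkpoint, cohesion and division formed a group of 12 members, put together after the values were seen. Of these, 11 fell in mid-pachytene, beside 73 of 122 over all members and 15.2% of all genes tested. The median change over the 12 was -1.43, and fewer of them were called without mid-pachytene array 2. Tipin, which protects replication forks, was at 10.96 and 10.72 in mid-pachytene, against 12.22, 12.66 and 12.34 in leptotene/zygotene (-1.57 ± 0.29, adjusted p = 0.00104), and at 8.75 in late pachytene and 10.01 to 10.92 in round spermatids. Chek1, the checkpoint kinase, was at 7.58 and 6.99 in mid-pachytene, against 8.85, 8.4993 and 9.18 in leptotene/zygotene (-1.56 ± 0.37, adjusted p = 0.00496). The call on Chek1 ended without mid-pachytene array 2 (-1.27, adjusted p = 0.0914) and with the mean of its probe sets (-0.92). Smc3, the cohesin subunit, changed by -1.22 ± 0.31 (without that array -0.97, adjusted p = 0.121) and was at 7.25 in late pachytene, 7.39 and 7.87 in diplotene and 9.11 to 9.55 in round spermatids.

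Of the division genes in that group, Kif23, Ccnf and Cdc25c were called and Mybl2 was not. Kif23, the kinesin of the central spindle, was at 9.70 and 9.43 in mid-pachytene, against 11.23, 11.37 and 11.37 in leptotene/zygotene (-1.75 ± 0.27, adjusted p = 0.000374), and reached 10.26 to 11.09 in round spermatids. Ccnf, an F-box protein with a cyclin domain, was at 7.85 and 7.35 in mid-pachytene, against 9.37, 9.48 and 9.34 in leptotene/zygotene (-1.80 ± 0.31, adjusted p = 0.000726). Cdc25c, the phosphatase that activates the mitotic and meiotic kinase, changed by -1.03 ± 0.34 (adjusted p = 0.0276), was at 6.59 in late pachytene and 6.93 and 7.05 in diplotene, and reached 8.64 to 9.44 in round spermatids; without mid-pachytene array 2 the change of Cdc25c was -0.70 (adjusted p = 0.304). Mybl2, the MYB family activator of division genes, was the member of the group that did not pass (-0.91 ± 0.38).

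The lists these genes belong to held few other members. DNA replication held 40 genes with Rrm2 as the single member. In mid-pachytene 16 fell and 2 rose, where 15.2% of all genes tested were called lower and 14.2% higher. Mitosis and spindle held 29 with Kif23, of which 11 fell and 1 rose, and cyclins and their kinases 30 with Ccnf, of which 10 fell and 3 rose. The late prophase list, which holds Cdc25c as its single member, went the other way. Of its 22 tested genes 15 rose and 2 fell, Cdc25c among the latter. The smaller rise above diplotene, the quantity that the rule used, had a median of -0.55 over the 24 replication genes and 0.07 over the 24 mitosis genes at least 7 in both outer fractions. More genes of these lists were thus called in mid-pachytene than met the thresholds of the dip.

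Tex15 and M1ap, both needed for male meiosis in mice, were members too, chosen for mention after their values were seen. Tex15, which acts in recombination and transposon silencing, was at 11.44 and 11.24 in mid-pachytene, against 12.90, 13.07 and 12.69 in leptotene/zygotene (-1.54 ± 0.28, adjusted p = 0.000916), and at 8.91 in late pachytene, 9.27 and 9.07 in diplotene and 10.50 to 11.51 in round spermatids. M1ap changed by -1.76 ± 0.54 (adjusted p = 0.0202; without mid-pachytene array 2 -1.23 and 0.254) and was at 6.18 to 8.02 in round spermatids, against 4.54 in late pachytene. Of the 27 measured genes of meiotic entry and recombination 0 were members, and the spermatogonial (23 genes), sex chromosome silencing (14) and spermatid (37) lists also held 0. Only 14, 2, 9 and 20 autosomal genes of these lists, in that order, were at least 7 in both outer fractions. Since 2.51% of all such autosomal genes met the thresholds, counts of 0 in lists this short say little.

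Chromatin genes among the members included writers and readers of histone marks. Suv39h2, a histone methyltransferase of testis, was at 8.35 and 7.83 in mid-pachytene, against 9.91, 9.59 and 9.53 in leptotene/zygotene (-1.59 ± 0.34, adjusted p = 0.00287). It was at 6.89 in late pachytene, 6.86 and 7.07 in diplotene and 8.36 to 9.93 in round spermatids, so the late pachytene and diplotene arrays lay below all leptotene/zygotene and round spermatid arrays. Brpf1, a scaffold of acetyltransferase complexes, was at 8.34 and 7.73 in mid-pachytene, against 9.56, 9.70 and 9.47 in leptotene/zygotene, and returned to 8.40 to 8.87. Gatad2b, of the NuRD complex, changed by -1.21 ± 0.39 (adjusted p = 0.0254). Hdac5, a deacetylase, changed by -0.44 ± 0.51 and did not pass; it was at 7.56 to 9.07 in round spermatids, against 5.89 in late pachytene. The calls on Suv39h2 (-1.32, adjusted p = 0.0611) and Gatad2b (-0.92, 0.247) ended without mid-pachytene array 2. Of the lists that hold them, histone acetylation (43 genes tested) had 11 lower and 6 higher in mid-pachytene, histone and DNA methylation (51) had 15 and 5, and chromatin remodelling (40) had 7 and 5. Over all genes tested, 15.2% were called lower and 14.2% higher.

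The cytoskeleton genes among the members included 2 tubulins and vinculin. Vcl, vinculin of actin attachment sites, was at 9.73 and 8.97 in mid-pachytene, against 10.72, 10.51 and 10.66 in leptotene/zygotene (-1.28 ± 0.30, adjusted p = 0.00454), and at 9.23 to 9.60 in round spermatids. Tubb2a, a beta tubulin, was at 7.11 and 4.76 in mid-pachytene, against 8.16, 7.40 and 7.16 in leptotene/zygotene (-1.64 ± 0.58, adjusted p = 0.0417). The calls on Vcl (-0.90, adjusted p = 0.112) and Tubb2a (-0.46, 0.683) ended without mid-pachytene array 2. Tuba4a, an alpha tubulin, did not pass (-0.46 ± 0.56) and was at 11.03 to 12.19 in round spermatids, against 8.69 in late pachytene. Zfp36l1, which speeds the decay of AU-rich mRNAs, was at 9.42 and 8.57 in mid-pachytene, against 10.93, 10.05 and 10.28 in leptotene/zygotene (-1.43 ± 0.35, adjusted p = 0.00610), and Dusp1 changed by -1.32 ± 0.44 (0.0331); both calls ended without mid-pachytene array 2 (adjusted p = 0.136 and 0.343). Of 40 cytoskeleton genes 9 fell and 0 rose, of 46 mRNA decay genes 13 fell and 3 rose, and of 30 tested circadian and immediate early genes 6 fell and 0 rose. Over all genes tested, 15.2% were called lower and 14.2% higher.

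Before pachytene few members changed. Between leptotene/zygotene and spermatogonia 2 members rose and 2 fell in limma's test (1.53% of all genes tested were called higher and 1.51% lower, and of the other 4729 autosomal genes 1.23% and 1.25%), and the median change was -0.19. Ccnf was at 9.37, 9.48 and 9.34 in leptotene/zygotene, against 7.90, 7.64, 7.67 and 8.72 in spermatogonia (1.42 ± 0.26, adjusted p = 0.0128). The CXXC zinc finger gene Cxxc5 was at 9.59, 9.06 and 9.46, against 8.47, 7.80, 7.82 and 8.84 in spermatogonia (1.14 ± 0.29, adjusted p = 0.0464). Nutm1, a testis gene whose product binds an acetyltransferase, was at 7.0039, 7.35 and 7.73, against 8.67, 8.71, 9.41 and 8.48 in spermatogonia (-1.45 ± 0.27, adjusted p = 0.0131), and Rrm2 fell as well (-1.20 ± 0.28, adjusted p = 0.0332). In a limma fit on these 7 arrays alone 0 members passed, with 16 of 122 at an unadjusted p below 0.05, beside 1678 of all 11716 genes tested. Without leptotene/zygotene array 2 the count was 0, without array 3 it was 1, without spermatogonia array 1 or 2 it was 2, and without spermatogonia array 4 it was 10.

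Between mid-pachytene and spermatogonia 83 members fell and 1 rose (19.2% of all genes tested were called lower and 17.5% higher, and of the other 4729 autosomal genes 11.3% and 18.7%), in a comparison that shares its arrays with both others. Retreg1, a receptor for the autophagy of endoplasmic reticulum, was at 7.28 and 6.51 in mid-pachytene, against 10.50, 11.44, 8.84 and 7.69 in spermatogonia (-2.73 ± 0.74, adjusted p = 0.00776). Its spermatogonia arrays varied widely, and its call ended without mid-pachytene array 2 (-2.34, adjusted p = 0.102). The tetraspanin gene Cd82, the member that rose (1.14 ± 0.41, adjusted p = 0.0365), was at 7.46 and 9.20 in mid-pachytene, against 7.06, 7.23, 6.96 and 7.52 in spermatogonia, so its groups overlapped. Without mid-pachytene array 2 fewer members, and fewer of all genes tested, were called. The median change was then -1.07 over the members and -0.06 over all genes tested.

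In the Spo11-/- arrays, where the median of the spermatid genes was 3.11 to 3.35, the members were at least at 7 about as often as the other autosomal genes of that level. In each of the 3 Spo11-/- arrays 113 of 122 members were at least at 7 (52.9%, 54.1% and 53.1% of all genes tested in spermatogonia, pre-leptotene and leptotene/zygotene, and 92.4%, 91.2% and 92.1% of the other 4729), and 106 were in all 3 (48.3% and 88.6%), or 62 with the mean of all probe sets of a gene. The median of the members was 9.44 in Spo11-/- spermatogonia, against 9.28 to 9.69 in wild type, 9.27 in Spo11-/- pre-leptotene, against 9.25 to 9.65, and 9.48 in Spo11-/- leptotene/zygotene, against 9.15 to 9.48.

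The 16 members below 7 in at least 1 Spo11-/- array were Cd82, Cdkn1c, Efhd2, Erf, Gxylt2, Hdac5, Kcnk5, Klc3, Mgp, Myadm, Nr4a1, Pltp, Rufy1, Spindoc, Zfp219 and Zfp704. Their medians were 6.93, 6.91 and 6.96 in Spo11-/- spermatogonia, pre-leptotene and leptotene/zygotene, against 7.38 to 8.20, 7.44 to 8.0031 and 7.13 to 7.94 in the wild-type arrays. The other 106 had medians of 9.67, 9.32 and 9.61 in those Spo11-/- arrays, against 9.60 to 9.88, 9.58 to 9.89 and 9.51 to 9.75 in wild type. The split was made on the Spo11-/- values, so these medians only describe it.

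**Figure D5:**
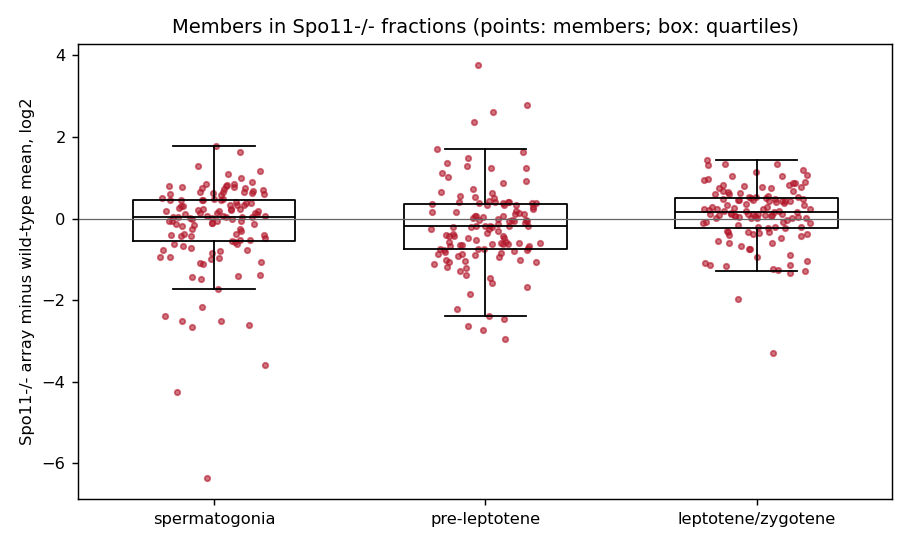
Level in the Spo11-/- array minus the wild-type mean of the same fraction, in log2 units, for the 122 members (red points) with their quartiles (boxes; whiskers reach the last point within 1.5 box lengths). The medians are 0.04 in spermatogonia, -0.19 in pre-leptotene and 0.15 in leptotene/zygotene.

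Over spermatogonia and leptotene/zygotene together, 4 members were higher and 4 lower in Spo11-/- than in wild type in limma's test (2 against 7 arrays; 0.966% of 11797 genes tested were called higher and 7.83% lower, and of the other autosomal genes 0.402% and 6.72%), and the members' median change was 0.10. The cyclin G gene Ccng2 was at 10.13 in Spo11-/- spermatogonia, against 8.15 to 8.90 in wild type, and at 8.96 in Spo11-/- leptotene/zygotene, against 7.72 to 8.33 (1.29 ± 0.28, adjusted p = 0.0219). The palmitoyltransferase gene Zdhhc20 (1.15 ± 0.25, 0.0207), Chek1 (1.07 ± 0.27, 0.0418) and the RNA-binding protein gene Rbm18 (1.06 ± 0.23, 0.0207) were higher as well. Each lay above every wild-type array in both fractions. With only 1 array per mutant fraction, most or all of the 8 calls ended when either Spo11-/- array was left out, and calls over all genes fell too. Without the spermatogonia array the median change was 0.15 over the members and -0.07 over all genes tested. Without the leptotene/zygotene array it was 0.04 and -0.01.

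The 4 lower members included the gene of matrix Gla protein. Mgp was at 3.13 in Spo11-/- spermatogonia, against 7.54 to 12.06 in wild type, and at 3.90 in Spo11-/- leptotene/zygotene, against 4.90 to 8.52 (-4.88 ± 1.28, adjusted p = 0.0470). Both Spo11-/- values lay below 4, the level used as the filter for low values, and the wild-type arrays spread widely. Pkm, pyruvate kinase of most somatic tissues, was at 7.47 in Spo11-/- spermatogonia, against 9.07 to 10.36 in wild type, and at 8.46 in Spo11-/- leptotene/zygotene, against 9.61 to 9.81 (-1.84 ± 0.38, adjusted p = 0.0184). The RNA-binding protein gene Mex3d (-1.89 ± 0.42, adjusted p = 0.0252) and Cd82 (-1.68 ± 0.32, adjusted p = 0.0137) were lower too. In the same comparison 32 of 37 spermatid genes and 3 of 9 peritubular and stromal genes were lower; their part in the fall of these 4 members was not tested. The difference between the fractions in the effect of the genotype gave 0 members at the limma threshold; 1 of 122 members, Suv39h2 (1.51 ± 0.43, SE), had an unadjusted p under 0.05, beside 294 of 11797 genes tested, and each mutant fraction is 1 array.

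In the Spo11-/- pre-leptotene array, which carried T cell markers, 7 members were at least 1 above every wild-type array of the fraction (6.53% of all genes tested and 1.86% of the other 4729), namely Nr4a1, Ggh, Cd82, Coro2a, Efhd2, Selenop and Dusp1. Dusp1 was at 13.17 there, against 9.98 to 10.86 in wild type, and Nr4a1 at 10.55, against 7.33 to 8.36. Another 12 were at least 1 below every wild-type array (8.67% and 8.63%), among them Klc3 at 5.59, against 7.99 to 8.68. The macrophage and leukocyte list had a median of 6.16 in the same array, against 2.83 to 5.69 in wild-type pre-leptotene, and its part in these values was not tested.

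A second probe set allowed some members to be read again. Of 170 other probe sets, for 87 members, 86 had a mean of at least 5. Both rises above diplotene were positive in 73 of these 86 and at least 1.5 in 23; their medians were 2.63 for pre-leptotene and 1.20 for round spermatids. In 12 of the 86 the round spermatid level was not above diplotene, against 1 for pre-leptotene. That of Mybl2 was among these 12, at -0.27, and that of Chek1 rose by 0.18. The probe sets that chose the members had medians of 2.57 and 2.04 for the same rises. A single probe set represented 35 members.

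Promoter windows were given for 97 of 122 members, and of 18193 genes for 14368. A window spans 250 bases before to 50 after the start, and each motif was searched on both strands in any window of a gene. GGGCGG, the Sp1 box, was held by 76.3% of members and 71.6% of the other autosomal genes at least 7 in both outer fractions. CCGGAAG, an ETS site, was held by 9 of 97 members (9.28%), against 27.6% of the other autosomal genes and 15.0% of all genes, and CNGTTA by 15.5%, against 23.8% and 23.3%. The shares for TATAAA were 12.4% of members, 7.44% of the others and 11.5% of all genes, for CACGTG 18.6%, 13.3% and 10.3%, for TGACGTCA 6.19%, 4.88% and 2.94%, and for CCAAT 44.3%, 44.0% and 42.0%. For AGGCCT they were 10.3%, 12.6% and 12.3%, for CNCCTCAG 16.5%, 12.2% and 10.6%, and for the NRF1 palindrome 2.06%, 3.16% and 1.75%; overlapping matches of different motifs were counted for each. The median GC content was 62.3%, 61.7% and 58.7%. These shares describe letters in the windows and were not tested.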

How the data were processed

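RNA of 23 sorted germ cell samples was measured on Affymetrix arrays. The deposited values are intensity per probe set, summarised with GCRMA per the submitters' processing notes, with no version given. They ran from 1.48 to 107451 and were read as linear. They were analysed as log2(value + 1), computed from the deposited values. Of 45037 probe sets 34945 had 1 symbol in the platform table, 932 had several and 9160 were not listed; 34741 probe sets were placed on GRCm38.p6 chromosomes through their Entrez number in the RefSeq table. Genes needed log2 of at least 4 in at least 2 arrays to be tested.

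Tests used limma 3.58.1 in R 4.3.3, with a mean per fraction over 20 wild-type arrays, or with fraction and genotype as additive terms over 2 Spo11-/- and 7 wild-type arrays; calls needed a Benjamini-Hochberg adjusted p below 0.05 over all genes tested and a log2 change of at least 1. In values simulated from these arrays, with 100 genes changed by 1.5 and 100 by 2, the mid-pachytene comparison recovered 46% and 64%. Named genes were the 12 deepest members, the 4 largest falls and rises called without overlap in each comparison, up to 3 members of each list, the 3 genes next to the thresholds on each side, and Spo11, Sycp3, Piwil1, Acr and Prm1; other names were added after values were seen. The members, lists, tests and groupings were chosen with earlier results of these data known. Alternatives covered the normalization, the added constant, the probe set, the filter, the fit and each array left out.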

Additional observations from a re-analysis of the deposited data

Results flagged for a closer look

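Among the named members, values of single arrays stood apart from the other arrays of their fraction by Dixon's test at the 95% level in 6 of 86 groups of 4 arrays, where chance gives about 1 in 20. Retreg1 was at 9.67 in round spermatid array 1, against 8.05 to 8.29 in the other 3. Tuba4a was at 12.19 in the same array, against 11.03 to 11.22. In round spermatid array 4 Chek1 was at 6.54, against 7.61 to 7.79, and Cd82 at 6.86, against 7.61 to 7.73. Klf4 was at 11.89 in round spermatid array 2, against 12.15 to 12.20, and Chek1 at 9.70 in spermatogonia array 3, against 9.05 to 9.13. T cell markers, outside the germ cell comparisons, had a median of 8.30 in the Spo11-/- pre-leptotene array and at most 4.25 in the wild-type arrays.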

How the results depend on the processing

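Membership depends on the processing: the rule gave 54 genes with the mean of all probe sets of a gene, 235 and 48 with a dip of 1.0 and 2.0, 79 with a level of 8, and 113 to 153 without each array. Members called in mid-pachytene against leptotene/zygotene numbered 73, and 21 to 73 without each array, the lowest without mid-pachytene array 2. Against spermatogonia, leptotene/zygotene gave 4 calls, 2 with the mean of probe sets, 11 with array weights, 0 with the arrays of the 2 fractions alone, 0 with the 11 arrays the rule did not use and 0 to 10 without each array; over all genes the 398 calls became 16 with 2 fractions alone, 38 with 11 arrays and 1229 with array weights. Mid-pachytene against spermatogonia gave 84 calls and 47 to 89 without each array. Spo11-/- against wild type gave 8 calls, 4 with the mean of probe sets, 5 with no filter and 0 to 10 without each array, and 62 instead of 106 members were at least 7 in all 3 Spo11-/- arrays with the mean of probe sets, an alternative chosen after seeing the data. With the replicate number as a block 83, 10 and 85 members were called in the 3 wild-type comparisons, in the order above; same-numbered arrays correlated in their deviations at 0.56 and 0.29 for mid-pachytene with leptotene/zygotene, 0.32 and 0.26 for mid-pachytene with spermatogonia, and 0.59, -0.24 and -0.27 for leptotene/zygotene with spermatogonia, the comparison with 3 pairs. With that block 2388, 584 and 2973 of all 13032 genes tested were called lower, and 2093, 535 and 2418 higher. The labels tie no number to a shared animal or day, and the numbers were not taken to pair the samples. Mid-pachytene changes of genes that did not pass turned sign in some settings: without each array they ran from -1.53 to 0.24 in Klc3, -1.05 to 0.049 in Pkm, -0.96 to 0.078 in Hdac5, -0.97 to 0.052 in Tuba4a and -0.39 to 1.35 in Cd82, where the sign turned without mid-pachytene array 2, from -1.03 to 1.05 in Mgp, where it turned without leptotene/zygotene array 2 or mid-pachytene array 1 (-0.83), and from -0.21 to 0.074 in Nr4a1, which was also at 0.027 with quantile normalization and 0.051 with array weights. Other results for named genes under alternatives were the same in 803 cases, lost the call in 127 and gained it in 15; the cause was not tested.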

Other observations

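Some members are neighbours in the genome. Within 500 kb of each other lay 8 pairs. How many such pairs as many other genes would form was not counted, so the pairs are only listed. Akap9, a scaffold of the centrosome and Golgi, and Cyp51, a sterol demethylase, lie on chromosome 5 at 3927736 to 4080204 and 4080674 to 4104697 (GRCm38.p6), on opposite strands with their ends 470 bases apart. Akap9 was at 7.02 in late pachytene, 6.62 and 5.95 in diplotene and 7.63 to 9.02 in round spermatids. Cyp51 was at 6.41 in late pachytene, 6.69 and 7.35 in diplotene and 8.21 to 9.89 in round spermatids. The return after diplotene differed between probe sets. Other Akap9 probe sets with a mean of at least 5 differed from diplotene by -0.64 and 3.07 in round spermatids. Another Cyp51 probe set, with a mean of 4.86, was at 6.47 in pre-leptotene, 2.92 in diplotene and 2.94 in round spermatids. In mid-pachytene Akap9 passed limma's test (-1.73 ± 0.56, adjusted p = 0.0264; without mid-pachytene array 2 -1.45 and 0.211) and Cyp51 did not (-0.72 ± 0.39). The other pairs were Cdc25c and Fam53c, Fbxl16 and Wdr90, Homer1 and Jmy, Ypel3 and Cdipt, Midn and Mex3d, Wwp1 and Ggh, and Dab2ip and Rbm18, with 7267 to 385085 bases between them.

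Metabolic enzymes made up 12 members, grouped after the values were seen. Of these, 7 fell in mid-pachytene (median change over the 12 -1.11), close to the 73 of 122 and -1.17 over all members. Fewer of them were called without mid-pachytene array 2. Asns, which makes asparagine, was at 8.11 and 7.31 in mid-pachytene, against 9.55, 8.38 and 9.03 in leptotene/zygotene, and was at 6.42 in late pachytene, 7.21 and 7.43 in diplotene and 9.24 to 10.34 in round spermatids. Glul, which makes glutamine, was at 6.85 in late pachytene, 8.31 and 7.67 in diplotene and 9.56 to 10.59 in round spermatids. Their other probe sets differed: that of Asns was 2.25 higher in round spermatids than in diplotene, while that of Glul was at 7.60 in round spermatids and 7.53 in diplotene.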
